A study of Mus musculus with 16 samples.

Results

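The acute phase serum proteins are secreted proteins whose genes the liver regulates during infection, injury and inflammation. 10 of them are described here: serum amyloid A (Saa1, Saa2, Saa3 and Saa4), alpha-1-acid glycoprotein (Orm1, Orm2 and Orm3), haptoglobin (Hp), hemopexin (Hpx) and lipocalin 2 (Lcn2). A probe set was taken where the annotation of the array gave it exactly 1 of these symbols, which gave 12 of the 45101 probe sets deposited and 10 of the 18193 genes measured. RNA of 16 liver pieces was read on Affymetrix arrays, 1 array per piece, in 4 groups. There were 7 liver tumours with a mutated Ctnnb1, the gene of beta-catenin, from mice given phenobarbital, and 3 pieces of non-tumour, non-mutated liver labelled as their controls. There were 3 liver tumours with a mutated Ha-ras, which encodes a GTPase upstream of the ERK kinases, and 3 pieces of non-tumour, non-mutated liver as their labelled controls, from mice without phenobarbital. Per the series text all mice were male C3H/HeJ, injected once with the liver carcinogen diethylnitrosamine at an age of 2 or 6 weeks (10 or 90 µg per g body weight), so the control livers had met the carcinogen too. Phenobarbital, a sedative that promotes liver tumours through the nuclear receptor CAR, is given as 0.05% of the diet for 28 to 36 weeks in the series text and as drinking water for 27 weeks in the sample labels. A protocol text of the samples describes a course of 28 days, and these accounts were not reconciled here. The 27 weeks stand in the labels of all 16 samples, those without phenobarbital included. Mutation and phenobarbital went together, so between the tumour types these effects cannot be told apart. Which groups had which age and dose of diethylnitrosamine is not given here, so the part of that schedule cannot be told apart either. The labels do not say whether the pieces came from separate mice, so p-values measure the spread between these samples, which may be technical.

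Values are log2 RMA intensities, with the SD over the arrays of a group after each mean and the standard error of the fit after each difference. The precision is limited by the number of arrays, and low values include background. A gene passed the test at a limma adjusted p under 0.05 over all genes, and "rose" and "fell" are used of genes that passed. The array medians lay between 5.03 and 5.10. The array carries control probe sets at both ends of the Gapdh transcript, and loss of the 5′ signal marks degraded RNA. The 3′ value exceeded the 5′ value by 2.70 in phenobarbital control 6, against −0.15 to 0.32 on the other arrays. The mean level of 8 hepatocyte markers was 13.6 ± 0.1 in Ctnnb1 tumours, 13.8 ± 0.2 in phenobarbital controls, 13.7 ± 0.1 in Ha-ras tumours and 13.8 ± 0.1 in untreated controls, so that all groups had strong hepatocyte signal. Cyp2b10, the cytochrome P450 that phenobarbital induces through CAR, had 12.62 ± 0.18 in phenobarbital controls and 7.54 ± 0.76 in untreated controls (adjusted p = 0.000352). Dusp6, a phosphatase induced by ERK signalling, had 11.57 ± 0.31 in Ha-ras tumours and 9.0 ± 0.10 in untreated controls (adjusted p = 5.93e-05). Glul, a target of beta-catenin in liver, had 13.60 ± 0.69 in Ctnnb1 tumours and 12.51 ± 1.19 in phenobarbital controls (adjusted p = 0.126). It was 13.72 to 14.14 in 6 Ctnnb1 tumours and 12.07 in tumour 6, below the untreated controls (12.31 to 12.63). The phenobarbital controls had 11.21, 12.79 and 13.54, the last in control 6.

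In the acute phase response, interleukin 6 acts on hepatocytes through the receptor chains Il6ra and Il6st and the transcription factor STAT3, and interleukin 1 and tumour necrosis factor act through NF-κB. C/EBP factors bind many of the same promoters, and the adrenal glucocorticoids strengthen the response. Saa1 and Saa2 are carried on high-density lipoprotein and are among the most inducible genes of mouse liver. Saa3 is made largely by macrophages and other cells outside the hepatocyte, and Saa4 is the constitutive form. Orm proteins bind drugs and lipids in plasma, haptoglobin binds free haemoglobin, hemopexin binds free haem, and lipocalin 2 withholds iron from bacteria by binding their siderophores. C3H/HeJ mice are known to carry a defective Tlr4, the receptor for bacterial lipopolysaccharide.

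The Saa genes lie side by side on chromosome 7 in the order Saa3, Saa4, Saa1 and Saa2, and the Orm genes on chromosome 4 in the order Orm1, Orm3 and Orm2. RefSeq promoter windows of GRCm38.p6, with 250 bases before and 50 after the start of the gene, were at hand for 8 of the 10 genes. The 250 bases before the start of 6 genes are given here, those whose window held the motif described next, among them the near copies Saa1 and Saa2, and Orm2 and Orm3. Capitals mark a C/EBP-type motif, TTGCNCAA on either strand, which was chosen after these promoters had been read.
Saa1 chr7:46742981-46743230, minus strand: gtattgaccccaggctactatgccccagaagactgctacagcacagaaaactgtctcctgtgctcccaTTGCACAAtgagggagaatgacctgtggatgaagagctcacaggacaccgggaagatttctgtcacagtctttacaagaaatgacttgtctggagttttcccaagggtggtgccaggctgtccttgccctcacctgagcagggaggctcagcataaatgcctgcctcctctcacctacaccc
Saa2 chr7:46751583-46751832, plus strand: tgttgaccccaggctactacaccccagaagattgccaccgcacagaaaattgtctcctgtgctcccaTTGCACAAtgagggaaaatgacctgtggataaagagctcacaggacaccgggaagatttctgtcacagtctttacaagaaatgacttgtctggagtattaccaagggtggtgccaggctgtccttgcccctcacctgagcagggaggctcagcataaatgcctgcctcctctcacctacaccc
Saa4 chr7:46732604-46732853, minus strand: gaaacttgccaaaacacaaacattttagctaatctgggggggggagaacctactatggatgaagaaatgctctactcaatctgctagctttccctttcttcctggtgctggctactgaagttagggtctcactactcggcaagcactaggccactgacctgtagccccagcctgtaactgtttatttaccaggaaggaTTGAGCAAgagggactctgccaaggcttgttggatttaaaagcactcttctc
Orm2 chr4:63362199-63362448, plus strand: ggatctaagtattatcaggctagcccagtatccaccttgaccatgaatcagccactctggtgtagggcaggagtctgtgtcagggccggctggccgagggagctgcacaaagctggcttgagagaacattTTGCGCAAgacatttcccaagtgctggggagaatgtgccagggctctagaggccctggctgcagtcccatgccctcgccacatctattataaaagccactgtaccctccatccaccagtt
Orm3 chr4:63355908-63356157, plus strand: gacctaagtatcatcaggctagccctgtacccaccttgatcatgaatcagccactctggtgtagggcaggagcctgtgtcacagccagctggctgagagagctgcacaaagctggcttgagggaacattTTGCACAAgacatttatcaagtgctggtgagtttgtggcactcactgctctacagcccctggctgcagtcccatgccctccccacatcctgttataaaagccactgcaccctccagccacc
Lcn2 chr2:32387740-32387989, minus strand: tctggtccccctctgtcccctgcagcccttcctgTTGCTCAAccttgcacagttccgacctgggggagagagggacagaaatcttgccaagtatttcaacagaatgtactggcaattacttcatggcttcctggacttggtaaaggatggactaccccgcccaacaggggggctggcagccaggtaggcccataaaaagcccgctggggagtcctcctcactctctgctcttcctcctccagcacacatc
The windows of Saa1 and Saa2 agreed at 287 of 301 aligned positions (95.3%), and those of Orm2 and Orm3 at 263 of 305 (86.2%). The other pairs of Saa windows had between 42.7% and 50.1% identity. The C/EBP-type motif began 182 bases before the start of Saa1 and 183 before that of Saa2, and 120 and 121 before those of Orm2 and Orm3. It was present in 6 of the 8 windows, with Saa4 and Lcn2 as the others, against 2.94% of 32851 promoter windows of the same length. The STAT motif TTCNNNGAA, present in 8.3% of all windows, and the NF-κB consensus, present in 4.51%, were matched in 0 of the 8, which says only that these letters were not in these windows. A match is a description of the letters and not a site shown to be bound.

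Saa1 and Saa2 were high in untreated control livers and lower in the other groups, with 1 Ctnnb1 tumour as an exception. Saa1 had 7.97 as its lowest value, 8.74 as its median and 13.17 as its highest in Ctnnb1 tumours, against 9.76, 10.07 and 10.08 in phenobarbital controls. It had 11.05, 10.29 and 11.29 in Ha-ras tumours, against 14.22, 12.56 and 13.49 in untreated controls. All 3 Ha-ras tumours lay below all 3 untreated controls, while 5 of the 7 Ctnnb1 tumours lay below every phenobarbital control, tumour 6 lay close to them and tumour 2 lay above. Saa2 followed the same order, with 6.68, 7.21 and 12.06 as the lowest, median and highest of the Ctnnb1 tumours and 7.92, 8.30 and 8.11 in phenobarbital controls. Its values were 9.34, 8.46 and 9.68 in Ha-ras tumours, against 13.17, 10.17 and 11.64 in untreated controls.

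None of these Saa1 and Saa2 differences passed the test in the fit of all 16 arrays with 1 coefficient per group. Ha-ras tumours differed from untreated controls by −2.54 ± 0.97 in Saa1, a 5.83-fold lower level (adjusted p = 0.101), and by −2.50 ± 1.08 in Saa2 (adjusted p = 0.153). Against phenobarbital controls the Ctnnb1 tumours differed by −0.63 ± 0.82 in Saa1 (95% interval −2.37 to 1.11, adjusted p = 0.680) and by −0.16 ± 0.91 in Saa2 (adjusted p = 0.940). The spread of the fit is pooled over all groups and holds Ctnnb1 tumour 2. Without that tumour Saa1 and Saa2 passed in Ha-ras tumours against untreated controls (adjusted p = 0.00219 and 0.0115), at the same difference, where 13.2% of all genes passed. The Ctnnb1 difference was then −1.27 for Saa1 (adjusted p = 0.0605) and −0.84 for Saa2 (adjusted p = 0.324).

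The second probe set of Saa1, whose annotated transcript belongs to Saa2 in RefSeq, gave values close to the first: 7.97 to 13.47 in Ctnnb1 tumours, 9.83 to 10.06 in phenobarbital controls, 9.78 to 11.01 in Ha-ras tumours and 12.26 to 14.13 in untreated controls. Saa1 and Saa2 are nearly identical genes and their probe sets may read each other's transcripts, so these 3 probe sets do not count as separate measurements.

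Saa4 was lower in Ha-ras tumours and its groups did not overlap. It had 11.86, 12.05 and 12.10 in Ha-ras tumours, against 13.18, 12.72 and 13.27 in untreated controls, and fell by 1.05 ± 0.32, a 2.08-fold difference (adjusted p = 0.0375). This call was lost without untreated control 1 or 3 and without any single Ha-ras tumour, with adjusted p up to 0.129. Its second probe set had 9.82, 10.12 and 9.86 in Ha-ras tumours, against 11.44, 11.07 and 11.28 in untreated controls (difference −1.33, adjusted p = 0.247). In Ctnnb1 tumours Saa4 ranged from 10.70 through a median of 11.64 to 12.40, against 11.78, 12.15 and 12.56 in phenobarbital controls, and these groups overlapped (difference −0.47 ± 0.27, adjusted p = 0.289). The second probe set stood at 6.12 in phenobarbital control 6, against 9.35 and 9.87 in controls 4 and 5, the same array that had the wide Gapdh gap. The part of RNA quality in that value was not tested.

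Saa3 had 8.43, 6.74 and 8.19 in Ha-ras tumours, against 8.62, 7.84 and 12.49 in untreated controls. The last of these, untreated control 3, stood above every other array. The difference of −1.86 ± 0.84 did not pass (adjusted p = 0.172), and it was −0.44 without untreated control 3 (adjusted p = 0.70) and −2.77 without untreated control 2 (adjusted p = 0.0438). Ctnnb1 tumours ranged from 7.31 through 7.57 to 8.80, against 7.77, 7.46 and 8.40 in phenobarbital controls, and these groups overlapped almost fully.

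**Figure D1:**
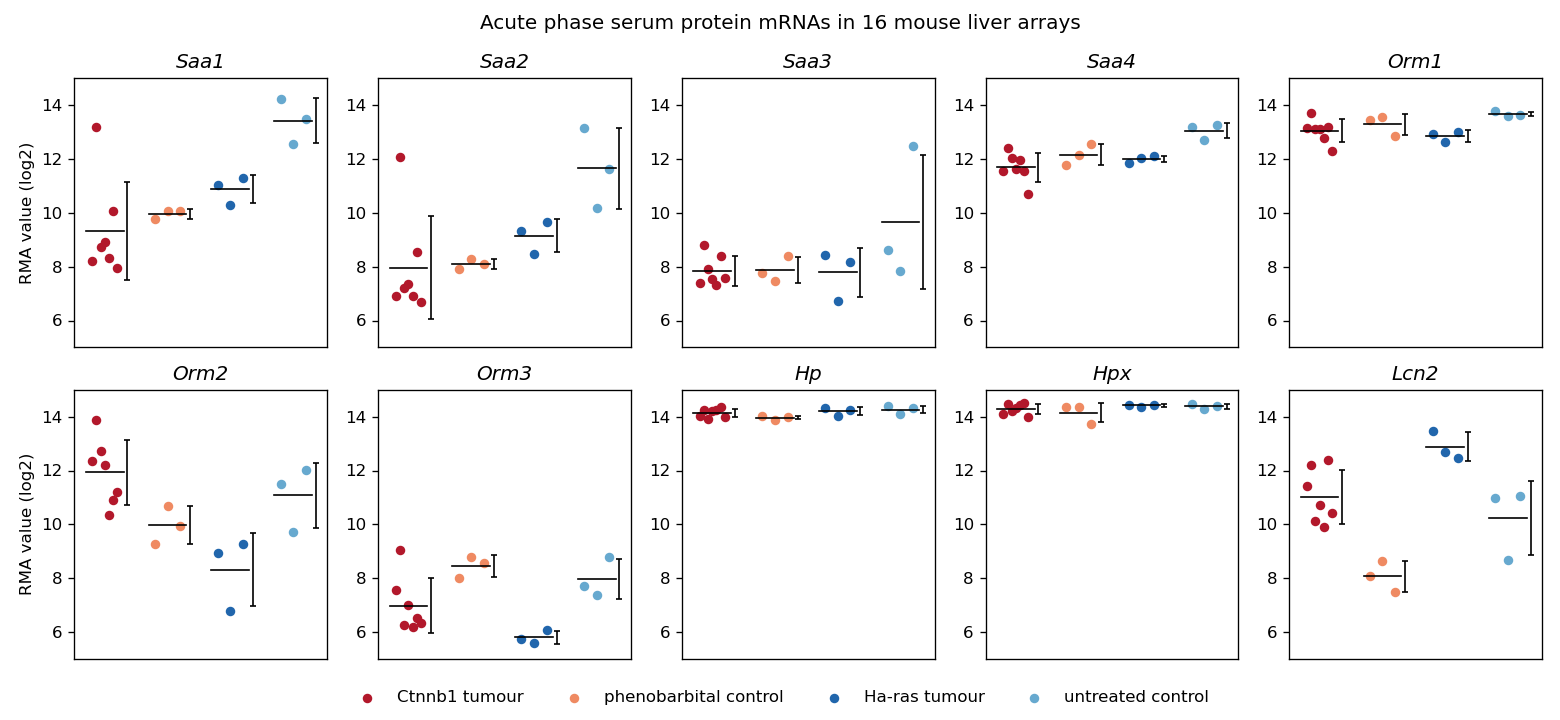
Log2 RMA value of each of the 10 genes on every array (1 panel per gene, points are arrays, bars group means, whiskers SD), for Ctnnb1 tumours, phenobarbital controls, Ha-ras tumours and untreated controls from left to right. Saa1 and Saa2 are highest in untreated controls apart from Ctnnb1 tumour 2, Orm2 is lowest in Ha-ras tumours, Lcn2 is higher in both tumour types than in their controls, and Hp and Hpx are level.

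Of the alpha-1-acid glycoproteins, Orm2 differed most between the tumour types. Its lowest, median and highest values were 10.36, 12.19 and 13.88 in Ctnnb1 tumours, against 9.27, 10.68 and 9.93 in phenobarbital controls. It had 8.92, 6.76 and 9.27 in Ha-ras tumours, against 11.49, 9.73 and 12.03 in untreated controls. Of the Ctnnb1 tumours 6 lay above all their controls and tumour 5 overlapped them, and all Ha-ras tumours lay below all of theirs.

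Orm2 fell by 2.76 ± 0.84 in Ha-ras tumours, a 6.79-fold difference (adjusted p = 0.0383). The call was lost without untreated control 1 or 3 (adjusted p = 0.121 and 0.156) and without Ha-ras tumour 1 or 2 (adjusted p = 0.0583 and 0.178), and the difference was 10.9-fold without untreated control 2. In Ctnnb1 tumours it was higher by 1.98 ± 0.71, a 3.93-fold difference (95% interval 0.47 to 3.48) that did not pass (adjusted p = 0.0820). The difference between these effects was 4.74 ± 1.10 (95% interval 2.41 to 7.07, adjusted p = 0.0175). It missed the threshold when 1 of 3 arrays was left out, namely untreated control 1 (4.54, adjusted p = 0.0538), untreated control 3 (4.26, adjusted p = 0.0566) and the second Ha-ras tumour (3.96, adjusted p = 0.0537), and it was 5.42 without untreated control 2. Orm2 was the 1 of the 10 genes that passed this test, where 5.43% of all genes did. Set directly against Ha-ras tumours, Ctnnb1 tumours had 12.3-fold more Orm2 (3.62 ± 0.71, adjusted p = 0.00207). This held without any single array, with adjusted p up to 0.0234 and a difference of 7.18-fold without Ha-ras tumour 2.

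Orm3, the neighbour of Orm2, did not share its higher level in Ctnnb1 tumours. It ranged from 6.18 through a median of 6.51 to 9.05 in Ctnnb1 tumours, against 8.0, 8.80 and 8.58 in phenobarbital controls. Of these tumours 6 lay below all controls and tumour 2 lay above them. The difference of −1.48 ± 0.50 did not pass (adjusted p = 0.0642), and without tumour 2 it was −1.82 (adjusted p = 0.00296) and passed, in a fit where 11.3% of all genes did. In Ha-ras tumours Orm3 had 5.73, 5.60 and 6.06, against 7.70, 7.37 and 8.79 in untreated controls. It fell by 2.16 ± 0.59 there, a 4.46-fold difference (adjusted p = 0.0220). All Orm3 values of the Ha-ras tumours were below the mean of the median gene (6.21), and low values include background. Leaving out untreated control 3 (−1.74, adjusted p = 0.109) ended the call, as did leaving out Ha-ras tumour 1 or 2 (adjusted p = 0.0659 and 0.0725).

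Orm1 had 12.93, 12.62 and 13.02 in Ha-ras tumours, against 13.77, 13.61 and 13.64 in untreated controls. These groups lay apart, at a difference of −0.82 ± 0.26 that missed the threshold (adjusted p = 0.0514). Ctnnb1 tumours ranged from 12.30 through 13.11 to 13.72, against 13.45, 13.58 and 12.86 in phenobarbital controls, and overlapped them (−0.24 ± 0.22, adjusted p = 0.535). The Orm genes are close copies, and how far their probe sets read each other was not tested.

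Hp and Hpx passed in none of the comparisons, with values near the top of the scale, where the highest probe set of each array stood at 14.91 to 15.11. The part of signal saturation in their narrow range was not tested. Hp had 13.91, 14.20 and 14.36 as its lowest, median and highest value in Ctnnb1 tumours, against 14.02, 13.89 and 13.97 in phenobarbital controls. It had 14.32, 14.04 and 14.23 in Ha-ras tumours, against 14.38, 14.11 and 14.31 in untreated controls. The tumour difference was 0.17 ± 0.11 for Ctnnb1 (adjusted p = 0.327) and −0.07 for Ha-ras (95% interval −0.34 to 0.20, adjusted p = 0.796). Hpx ranged from 14.00 through 14.31 to 14.52 in Ctnnb1 tumours, against 14.36, 14.35 and 13.73 in phenobarbital controls. It had 14.45, 14.36 and 14.44 in Ha-ras tumours, against 14.47, 14.27 and 14.41 in untreated controls, a difference of 0.03 (95% interval −0.32 to 0.38, adjusted p = 0.935). The low Hpx value belonged to phenobarbital control 6.

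Lcn2 was the 1 gene of the 10 that rose in both tumour types. Its lowest, median and highest values were 9.89, 10.70 and 12.38 in Ctnnb1 tumours, against 8.07, 8.63 and 7.49 in phenobarbital controls. It had 13.48, 12.70 and 12.46 in Ha-ras tumours, against 10.97, 8.67 and 11.07 in untreated controls. Every tumour lay above every control of its own treatment.

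Lcn2 rose 7.79-fold in Ctnnb1 tumours (2.96 ± 0.58, adjusted p = 0.00407), and this call held without any single array (2.68 to 3.25, adjusted p up to 0.0279). In Ha-ras tumours it rose 6.25-fold (2.64 ± 0.69, adjusted p = 0.0167), and leaving out untreated control 2 (3.63-fold, adjusted p = 0.0875) or tumour 1 (adjusted p = 0.0752) ended the call. The effects differed by 0.32 ± 0.90 (95% interval −1.59 to 2.23, adjusted p = 0.902), an interval that leaves room for a difference of either sign. Ctnnb1 tumours had 3.62-fold less Lcn2 than Ha-ras tumours (−1.86 ± 0.58, adjusted p = 0.0406), a call that held in 7 of the 16 fits with 1 array left out. It was lost without Ctnnb1 tumour 1, 3, 4, 5 or 7, phenobarbital control 4 or any single Ha-ras tumour, with adjusted p up to 0.196. In bulk tissue, fewer cells of a type and less RNA per cell cannot be told apart.

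Lcn2 is also made by neutrophils, whose markers were therefore read beside it. Of 12 listed neutrophil markers 11 were measured, and 0 passed in any comparison with limma, where at an unadjusted p under 0.05 there were 0 in Ctnnb1 tumours and 1 in Ha-ras tumours against their controls and 3 between the tumour types. Their mean level was 4.86 to 6.19 in Ctnnb1 tumours, 4.88 to 5.19 in phenobarbital controls, 5.01 to 5.15 in Ha-ras tumours and 5.10 to 5.28 in untreated controls. The highest of these was Ctnnb1 tumour 1, where S100a8, a calcium-binding protein of neutrophils, stood at 9.13, and tumour 2 followed with 8.09, against 5.81 to 6.74 in the other 5 Ctnnb1 tumours. Lcn2 was highest in Ctnnb1 tumour 6 (12.38), where S100a8 was 6.74 and Glul lowest of the 7. Without tumour 6 the Lcn2 difference between Ctnnb1 tumours and phenobarbital controls was 2.73 (adjusted p = 0.00532). The part of neutrophils in the Lcn2 values of tumours 1 and 2 was not tested.

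**Figure D2:**
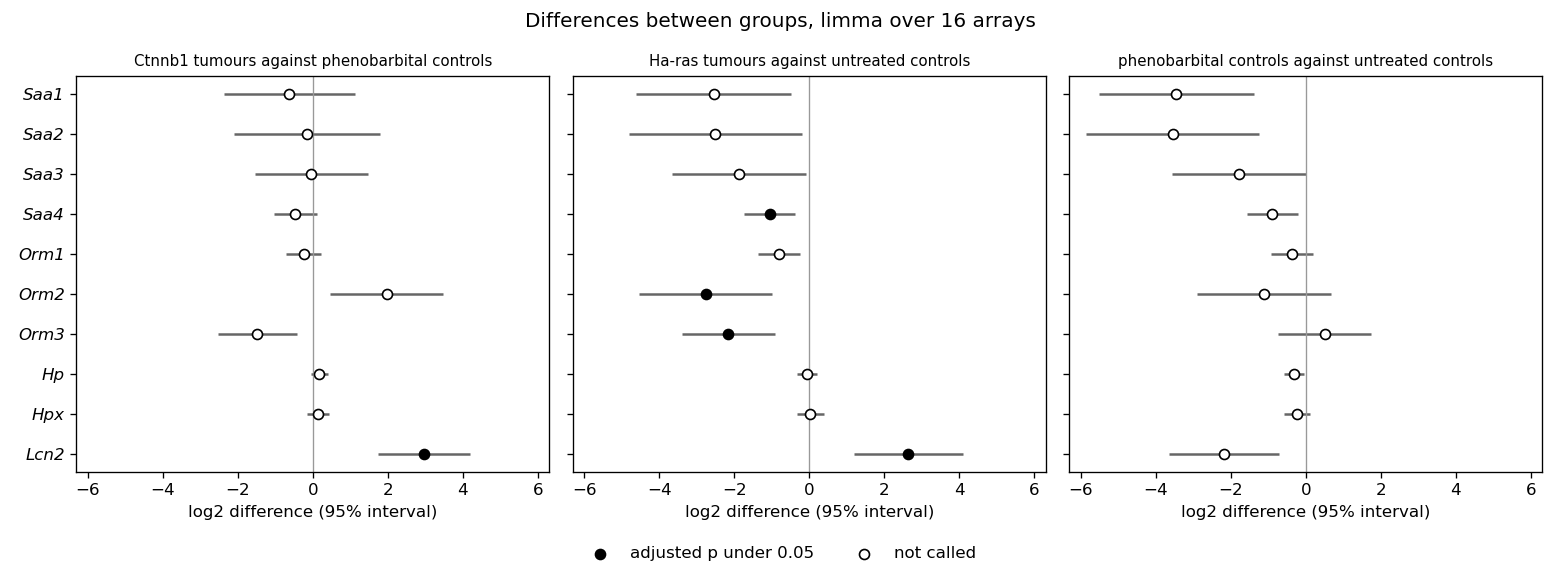
Log2 difference of each gene with its 95% interval in 3 panels. They show Ctnnb1 tumours against phenobarbital controls, then Ha-ras tumours against untreated controls, then phenobarbital controls against untreated controls. Filled points passed the test. Lcn2 passed in the first (2.96), Lcn2, Orm2, Orm3 and Saa4 in the second (2.64, −2.76, −2.16 and −1.05), and 0 genes in the third.

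Counted over the 10 genes, 1 rose and 0 fell in Ctnnb1 tumours against phenobarbital controls, where 12% of all genes passed, 6.07% higher and 5.97% lower. In Ha-ras tumours against untreated controls 1 rose and 3 fell, where 13.5% of all genes passed, 7.21% higher and 6.33% lower. The values of 7 of the 10 genes did not overlap between Ha-ras tumours and untreated controls, as was so for 34.8% of all genes, and between Ctnnb1 tumours and their controls those of 1 gene, against 12.6% of all genes. The median log2 difference of the 10 genes was −1.46 in Ha-ras tumours and −0.10 in Ctnnb1 tumours, beside −0.04 and −0.03 over all genes. Ctnnb1 against Ha-ras tumours gave 1 higher (Orm2) and 1 lower (Lcn2) gene, where 15.1% of all genes passed (7.21% higher and 7.9% lower).

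Between the control livers, 0 of the 10 genes passed with limma, where 0.214% of all genes did (0.132% higher and 0.0824% lower), and 5 had an unadjusted p under 0.05. Saa1 was 10.9-fold lower in phenobarbital controls than in untreated controls (−3.45 ± 0.97, adjusted p = 0.140) and Saa2 was 11.7-fold lower (−3.55 ± 1.08, adjusted p = 0.171). Lcn2 differed by −2.17 ± 0.69 (adjusted p = 0.189). The values of 6 of the 10 genes did not overlap between these groups, as was so for 18.8% of all genes. Without Ctnnb1 tumour 2 in the pooled spread, Saa1 and Saa2 passed (adjusted p = 0.0120 and 0.0300), where 0.209% of all genes did. The comparisons of the tumours with their controls share these control arrays, so the low Saa and Lcn2 values of the phenobarbital controls also enter the Ctnnb1 comparison. Lcn2 had 8.06 ± 0.57 in phenobarbital controls and 10.24 ± 1.36 in untreated controls. In Ctnnb1 tumours it had 9.89 to 12.38, which overlapped the untreated controls (8.67 to 11.07).

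The 7 Ctnnb1 tumours differed widely among themselves in these genes. The SD of Saa1 (1.82) and Saa2 (1.91) exceeded that of 99.9% of all genes or more, and those of Orm2 (1.21), Orm3 (1.03) and Lcn2 (1.0) that of over 99% (99.5%, 99.2% and 99.1%). Hp (0.16) and Hpx (0.19) exceeded 41.5% and 55.8% of genes, at values near the top of the scale. Ctnnb1 tumour 2 had the highest value in 7 of the 10 genes, all of them Saa or Orm genes, and tumour 6, the one with low Glul, the highest in the other 3, Hp, Hpx and Lcn2. Tumour 7 was lowest in 5 genes, tumour 5 in 4 and tumour 3 in 1. Among the untreated controls Saa3 had an SD of 2.49, set by control 3. A wide spread was not confined to the Ctnnb1 tumours. In untreated controls the SDs of Saa1, Saa2, Orm2, Orm3 and Lcn2 exceeded those of 99.2%, 99.9%, 99.7%, 98.9% and 99.9% of all genes. In the same order the shares were 94.6%, 96.4%, 99.7%, 72.2% and 94.9% in Ha-ras tumours. They were 44.4%, 44.8%, 96.6%, 84.3% and 93.2% in phenobarbital controls.

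**Figure D3:**
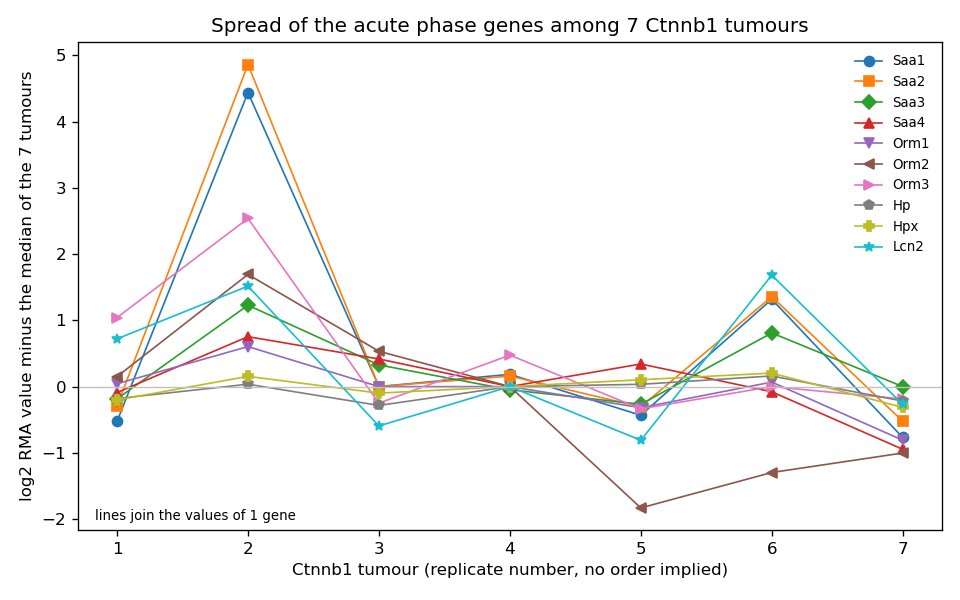
Log2 RMA value of each gene in the 7 Ctnnb1 tumours minus its median over them, with lines joining the values of 1 gene and replicate numbers along the x axis, which imply no order. Tumour 2 stands far above the others in Saa1 (13.17, with a median of 8.74) and Saa2 (12.06, with a median of 7.21), while Hp and Hpx stay close to the zero line.

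Other genes of the acute phase response, not all of them for plasma proteins, were read from a list. Of 21 measured genes on a list of 24 (genes known to increase in the response), 0 rose and 3 fell in Ctnnb1 tumours, with a median log2 difference of −0.15, and 3 rose and 2 fell in Ha-ras tumours, with a median of 0.13. Over all genes the medians were −0.03 and −0.04, and 12% and 13.5% of genes passed in either direction. Hamp, the hormone hepcidin that limits iron release, fell by 3.20 ± 0.73 in Ctnnb1 tumours (adjusted p = 0.0102), a call that held without any single array. It fell by 2.86 ± 0.86 in Ha-ras tumours (adjusted p = 0.0370), a call that was lost without Ha-ras tumour 1 or 2 or any single untreated control, with adjusted p up to 0.183 and a difference of −1.96 without Ha-ras tumour 1 and −4.02 without Ha-ras tumour 3.

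In Ha-ras tumours Il1rn, the antagonist of the interleukin 1 receptor, rose by 3.60 ± 0.41, with 9.32 ± 0.17 in the tumours and 5.71 ± 0.76 in untreated controls (adjusted p = 2.64e-05). Cd14, a co-receptor for lipopolysaccharide, rose by 3.11 ± 0.43 (adjusted p = 0.000137). Crp, C-reactive protein, which is only weakly induced in mice, fell by 1.04 ± 0.17, with 11.35 ± 0.11 in the tumours and 12.39 ± 0.05 in untreated controls (adjusted p = 0.000603). These 3 calls held without any single array. The Il1rn effect in Ctnnb1 tumours minus that in Ha-ras tumours was −3.02 ± 0.54 (adjusted p = 0.00296). Against Ha-ras tumours, Ctnnb1 tumours had 13 of the 21 genes lower and 1, Crp, higher, where 7.9% of all genes were lower and 7.21% higher. Their median was −0.68, beside 0.00 over all genes.

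Of 11 measured plasma proteins that decrease in the response, 0 passed in Ctnnb1 tumours with limma (3 at an unadjusted p under 0.05) and 3 rose in Ha-ras tumours, where 7.21% of all genes did. These were the apolipoproteins Apoa4 (1.70 ± 0.26, adjusted p = 0.000365) and Apom (1.51 ± 0.20, adjusted p = 0.000121) and the carrier protein Ahsg, fetuin-A (0.76 ± 0.18, adjusted p = 0.00777). The Apom effect in Ctnnb1 tumours minus that in Ha-ras tumours was −2.0 ± 0.27 (adjusted p = 0.000296).

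Among the cytokines that induce the response, 9 of 10 listed were measured. In Ctnnb1 tumours 0 passed with limma (1 at an unadjusted p under 0.05), and Lif, a ligand of the Il6st family, rose in Ha-ras tumours by 1.02 ± 0.16, with 5.60 ± 0.18 in the tumours and 4.58 ± 0.09 in untreated controls (adjusted p = 0.000573). Both Lif levels were below the mean of the median gene (6.21), and low values include background. Il6 itself stood at 2.60 ± 0.19 in Ctnnb1 tumours, 2.48 ± 0.06 in phenobarbital controls, 2.67 ± 0.11 in Ha-ras tumours and 2.72 ± 0.14 in untreated controls, at the low end of the scale where background cannot be separated from signal.

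All 13 listed receptors were measured, of which 1 rose and 4 fell in Ctnnb1 tumours and 2 rose and 4 fell in Ha-ras tumours, where 12% and 13.5% of all genes passed in either direction. Il6st, the signalling chain shared by the interleukin 6 family, fell by 1.0 ± 0.18 in Ctnnb1 tumours (adjusted p = 0.00266) and by 1.0 ± 0.22 in Ha-ras tumours (adjusted p = 0.00526). Il1rap, the accessory chain of the interleukin 1 receptor, fell by 1.09 ± 0.19 (adjusted p = 0.00210) and by 1.36 ± 0.23 (adjusted p = 0.000754). Il1r1, the ligand-binding chain, went in opposite directions. It had 9.23 ± 0.44 in Ctnnb1 tumours and 8.45 ± 0.16 in phenobarbital controls (0.78 ± 0.23, adjusted p = 0.0362), and 7.81 ± 0.36 in Ha-ras tumours and 8.82 ± 0.26 in untreated controls (−1.0 ± 0.27, adjusted p = 0.0210). The first of these calls was lost in 8 of the fits with 1 array left out (adjusted p up to 0.119) and the second without untreated control 3 or Ha-ras tumour 2 (up to 0.105). The difference between the Il1r1 effects, 1.79 ± 0.35 (adjusted p = 0.00646), held without any single array.

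Osmr, the oncostatin M receptor chain, rose by 0.70 ± 0.15 in Ha-ras tumours (adjusted p = 0.00422), and its effect in Ctnnb1 tumours minus that in Ha-ras tumours was −1.08 ± 0.19 (adjusted p = 0.00296). Il6ra, the interleukin 6 binding chain, fell by 1.03 ± 0.29 in Ctnnb1 tumours (adjusted p = 0.0312), a call that was lost without tumour 1 or 4 or any single phenobarbital control, with adjusted p up to 0.135. In Ha-ras tumours Il6ra differed by −0.67 (adjusted p = 0.244). Tlr4 differed by 0.01 in Ctnnb1 tumours (adjusted p = 0.969) and by 0.12 in Ha-ras tumours (adjusted p = 0.718).

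Of the 20 genes listed for kinases, transcription factors and inhibitors of these pathways 18 were measured, and 0 rose and 1 fell in Ctnnb1 tumours, while 2 rose and 0 fell in Ha-ras tumours, shares at or below those of all genes (12% and 13.5%). Cebpa, the C/EBP factor of resting hepatocytes, fell by 0.92 ± 0.13 in Ctnnb1 tumours (adjusted p = 0.000529). Junb, an AP-1 subunit that is induced early by interleukin 6, rose by 1.18 ± 0.23 in Ha-ras tumours (adjusted p = 0.00250), and Relb, a subunit of NF-κB, by 0.89 ± 0.21 (adjusted p = 0.00851). Stat3 differed by −0.28 in Ctnnb1 tumours (adjusted p = 0.351) and by −0.07 in Ha-ras tumours (adjusted p = 0.891). Socs3, the STAT3-induced inhibitor of the pathway, differed by 0.50 (adjusted p = 0.437) and −0.13 (adjusted p = 0.904) in these tumours.

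**Figure D4:**
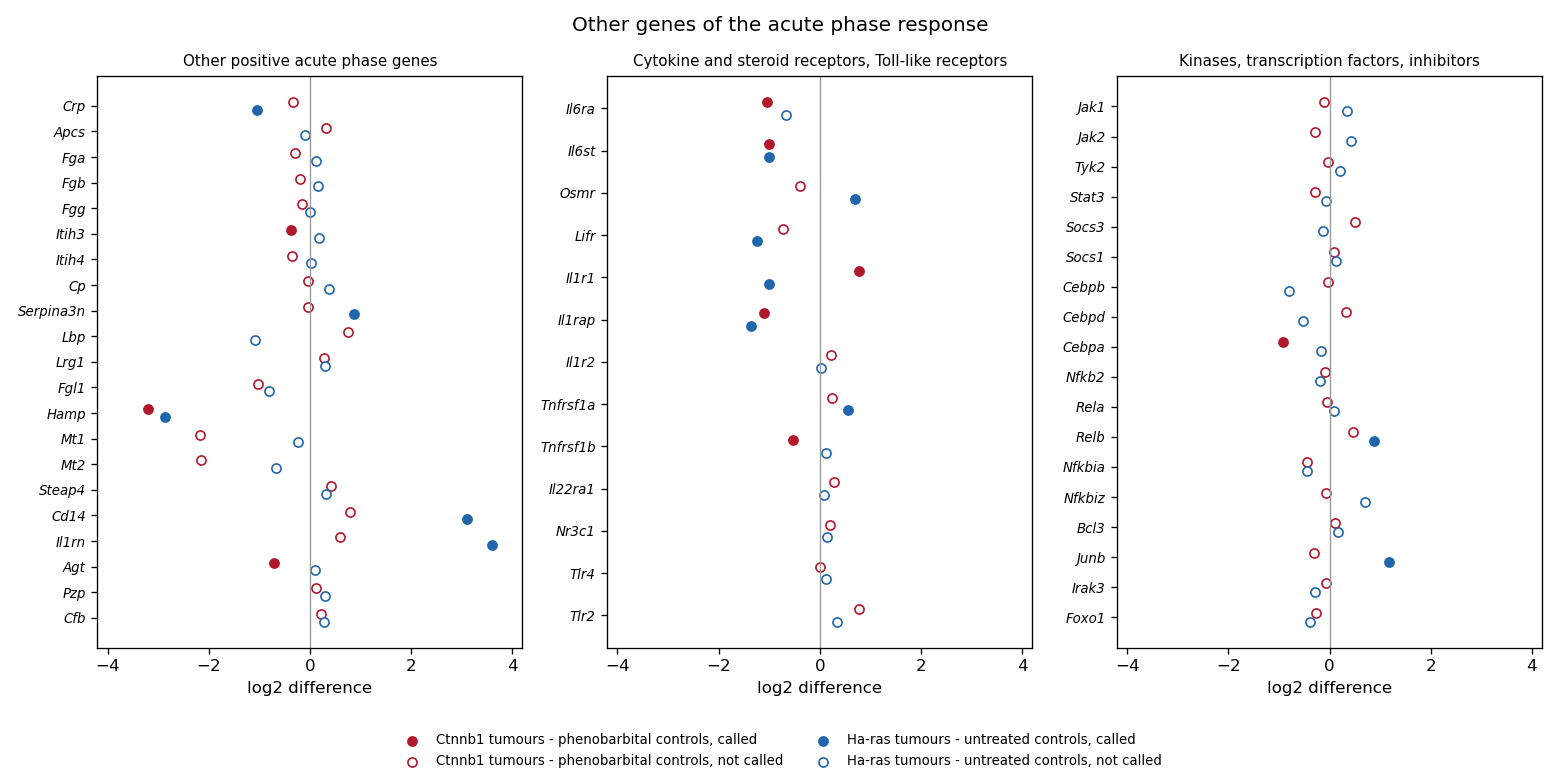
Log2 difference of the other positive acute phase genes, the receptors and the signalling genes, in Ctnnb1 tumours against phenobarbital controls (red) and Ha-ras tumours against untreated controls (blue). Filled points passed the test. Hamp lies far to the left in both, Il1rn (3.60) and Cd14 (3.11) far to the right in Ha-ras tumours, and Il1r1 on opposite sides of zero.

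Genes that bind or clear these proteins or their cargo included Cd163, the haptoglobin-haemoglobin receptor of macrophages. It fell by 1.67 ± 0.34 in Ctnnb1 tumours (adjusted p = 0.00504) and by 2.43 ± 0.40 in Ha-ras tumours (adjusted p = 0.000679). Its levels in these tumours, 3.99 ± 0.50 and 3.77 ± 0.64, were low and include background. Of the 11 measured genes of that list 1 rose and 1 fell in Ctnnb1 tumours and 0 rose and 4 fell in Ha-ras tumours, where 12% and 13.5% of all genes passed in either direction. Fth1, the ferritin heavy chain, rose by 0.74 ± 0.18 in Ctnnb1 tumours (adjusted p = 0.0139). It had 14.10 to 14.40 in those tumours, against 13.91, 13.87 and 12.76 in phenobarbital controls, the last in control 6, the array with the wide Gapdh gap. Without that control the difference was 0.37 (adjusted p = 0.0220), and the part of RNA quality in it was not tested. Macrophage markers were read beside Cd163. Of 12 measured, 2 fell and 10 did not pass in Ctnnb1 tumours, where 5.97% of all genes fell, and 4 fell and 8 did not pass in Ha-ras tumours, where 6.33% did. Their median difference was −0.38 and −0.92, beside −0.03 and −0.04 over all genes, and Cd68, a lysosomal protein of macrophages, differed by 0.83 in Ctnnb1 tumours (adjusted p = 0.141). Clec4f, a Kupffer cell lectin, fell in both (−1.95 and −2.46), although leaving out phenobarbital control 4 ended the first call (adjusted p = 0.0734) and the second difference was −1.67 without Ha-ras tumour 1. The other Ha-ras calls were lost in 5 of the fits with 1 array left out for Vsig4, a complement receptor (adjusted p up to 0.167), in 4 for Timd4, a receptor for dying cells (up to 0.121), and in 3 for the folate receptor Folr2 (up to 0.126). Their mean level was 7.91 to 8.60 in Ctnnb1 tumours, 8.35 to 9.13 in phenobarbital controls, 6.80 to 8.73 in Ha-ras tumours and 8.26 to 9.02 in untreated controls. The part of macrophage number in the Cd163 and Saa3 values was not tested. Markers of other cell types were read beside the same shares of all genes. Of 8 stellate cell and fibroblast markers 3 fell in Ctnnb1 tumours and 2 in Ha-ras tumours, with Lrat, the retinol-esterifying enzyme of stellate cells, at a difference of −2.13 in both. Their median difference was −0.26 in Ctnnb1 tumours and 0.09 in Ha-ras tumours. The collagen genes did not pass, with Col1a1 at 0.54 and 0.46, Col1a2 at 0.58 and 0.74 and Col3a1 at 0.19 and 0.61, and the Ctnnb1 call of Pdgfrb, a growth factor receptor (−0.99), was lost without control 6 (adjusted p = 0.144). Of 5 measured adipocyte markers 2 rose in Ha-ras tumours, among them the lipid carrier Fabp4 (2.24 ± 0.38, adjusted p = 0.000827). The other was Cidec, a lipid droplet protein (2.18), whose call was lost in 4 of the fits with 1 array left out (adjusted p up to 0.0952). The list's median was −0.24, and the other 3 did not pass, namely the hormones Adipoq (−0.57, adjusted p = 0.0717), Lep (−0.36, adjusted p = 0.0592) and Retn (−0.24, adjusted p = 0.318). Of the 8 hepatocyte markers 2 fell in Ctnnb1 tumours, Tat (−1.57) and Apoc3 (−0.42). Of 5 measured cholangiocyte markers 1, Krt7, fell in Ctnnb1 tumours (−0.61), a call lost in 9 of the fits with 1 array left out. Of 9 measured lymphocyte markers 0 passed in any comparison with limma, with 2 at an unadjusted p under 0.05 in Ctnnb1 tumours and 0 in Ha-ras tumours. Their part in the results was not tested.

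Over all 16 arrays, the genes outside the 10 whose log2 values ran most like Lcn2 were Map3k6 (Pearson r = 0.902), Lrrc8a (0.877) and Fam114a1 (0.866). Those most like Orm2 were Gde1 (0.932), Il1r1 (0.921) and Scara5 (0.894). Those most like Saa1 were Fgl1, a secreted fibrinogen-like protein of hepatocytes (0.889), AA986860 (0.879) and Crybb3 (0.877), and the same 3 genes were most like Saa2 (0.855, 0.838 and 0.852). For Orm3 they were Syt3 (0.913), Sema3e (0.884) and Sppl2b (0.872), and for Hpx Cul1 (0.878), Serping1 (0.868) and Cfb (0.850). These coefficients describe arrays that fall into 4 groups and are picked from all genes as the highest, so they carry no test.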

How the data were processed

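Total RNA of 16 liver samples was hybridised to Affymetrix GeneChip arrays with a 3′ labelling kit, per the labels' protocols. The deposited values are log2 intensities per probe set that the authors made with RMA in R 2.14.1, per the submitters' processing notes, and no detection calls were used, so low values may be background. Of 45101 probe sets, 64 were array controls. The platform annotation gave 34945 of them 1 gene symbol, 932 several and 9160 no symbol. By identifier, 34741 matched RefSeq and 0 were renamed. The probe set with the highest mean stood for each of 18193 genes.

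limma 3.58.1 in R 4.3.3 with data.table (version 1.17.8) fitted 1 coefficient per group over all 16 arrays, with eBayes and Benjamini-Hochberg adjustment over all genes at 0.05. The comparisons were each tumour type against the control of its treatment, the difference between these effects, phenobarbital controls against untreated ones, and the tumour types against each other. Tested on simulated data with 200 changed genes, the fit recovered 82 of 100 at a log2 change of 1 and 98 of 100 at 2 in the Ctnnb1 comparison, and 79 and 96 in the Ha-ras comparison, with 7.22% and 4.89% false calls. Promoters were aligned with Biopython 1.88.

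Members and gene lists were chosen with earlier results of these data known. The naming rule took all members. Per list and comparison it took up to 4 passing genes with the largest change and up to 2 against the majority. It also took Tlr4, Il6ra, Stat3 and Socs3, the 3 genes most like each member, and Glul, Dusp6 and Cyp2b10 as checks. Not every gene it took is printed. Left out are several passing list genes, such as Agt and Itih3, and the genes most like Saa3, Saa4, Orm1 and Hp. S100a8, Il6, the collagen genes, Adipoq, Lep and Retn were named outside this rule, after their values were seen, as was Cd68 in Ctnnb1 tumours against controls. Hras is not analysed here.

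Alternatives were fits of only the groups compared, replicate number as a block, no dim genes, probe sets averaged per gene, every probe set tested, quantile normalization again, median centring, eBayes with trend and robust, and each array left out. Leaving out arrays for the named genes of the lists was added after seeing the data. Equal replicate numbers were not taken as pairs. Correlations of their deviations from the group means ran from −0.186 to 0.399, and not every pair exceeded 0.1. Ha-ras tumours 1, 2 and 3 had 0.030, 0.399 and 0.238 with the untreated control of the same number. Their highest correlations with another number were 0.071, −0.098 and 0.065, so whether these samples were paired was not settled.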

Additional observations from a re-analysis of the deposited data

Results flagged for a closer look

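Ctnnb1 tumour 2 stood apart from the other 6 Ctnnb1 tumours in Saa1 and Saa2. Saa1 was 13.1749 there on the probe set used and 13.4653 on the other one, and Saa2 was 12.0646. The gap to the next tumour was 0.599, 0.635 and 0.651 of the whole range of the 7 values. Chance flags about 1 in 20 groups, and the 3 probe sets read nearly identical genes, so they amount to 1 event rather than 3. In the same tumour the neutrophil marker S100a8 was 8.09, against 5.81 to 9.13 over all Ctnnb1 tumours, and Fgl1 was 12.996, against 10.39 to 11.99 in the other 6. Their part in the Saa values was not tested.

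The Orm2 effect differed between the tumour types by 4.73902 on the log2 scale (interaction, limma adjusted p = 0.0175). Orm2 was higher in 6 of 7 Ctnnb1 tumours than in every phenobarbital control and lower in 3 of 3 Ha-ras tumours than in every untreated control. Phenobarbital and mutation cannot be told apart in this difference.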

How the results depend on the processing

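In Ctnnb1 tumours against phenobarbital controls, 1 of the 10 genes passed, and 2 passed with the replicate block or with dim genes left out (1 to 2 with 1 array left out). In Ha-ras tumours against untreated controls, 4 passed, 7 with the replicate block (Saa1, Saa2 and Orm1 were added, adjusted p = 0.00144, 0.00719 and 0.0322) and 0 to 7 with 1 array left out: 7 without Ctnnb1 tumour 2, 2 without untreated control 1, 1 without untreated control 3 or Ha-ras tumour 2, and 0 without Ha-ras tumour 1. For the difference between the effects 1 passed (0 to 1 with 1 array left out, 0 without untreated control 1, untreated control 3 or Ha-ras tumour 2). Between the control livers 0 passed, 1 in a fit of these groups only and 0 to 2 with 1 array left out. In Ctnnb1 against Ha-ras tumours 2 passed, 1 with the replicate block, 1 with trend and robust, and 1 to 4 with 1 array left out. The cause of these shifts was not tested. Over single genes, 1146 values kept their side of the threshold, 22 gained the call, 32 lost it and 0 called values changed sign. Among values called in neither fit 19 changed sign. Whether samples with equal numbers were paired is not known, so the block is a check and not a paired design. Its fit of tumours against controls holds 12 arrays, without Ctnnb1 tumours 1, 2, 3 and 7. Ha-ras tumour 1 did not correlate best with the control of its own number, while Ha-ras tumours 2 and 3 did. No paired analysis was possible between the control livers because they share no replicate number. Low intensities include background, and 0 members had a mean below the median gene (6.21).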
